A study of Mus musculus with 15 samples.

Results

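The 10 genes described here form the core and the direct output of the circadian clock: Arntl, Npas2, Per1, Per2, Per3, Cry1, Nr1d1, Nr1d2, Dbp and Tef. They were found by symbol, as every probe set whose array annotation gives a single gene symbol equal to one of these names. The array of 45101 probe sets held 23 of them, and the 10 genes stand among 18194 genes with such a probe set. RNA came from colon scrapings of male C57BL/6 mice, an inbred laboratory strain, at 11 weeks of age. For 14 days the food of the 9 heme mice carried heme at 0.5 umol per g in a base rich in fat (40% of energy) and poor in calcium. The 6 control mice ate the same base, equally rich in fat and poor in calcium, with no heme. Heme is the iron-containing ring compound that colours red meat. Each mouse was hybridised to its own Affymetrix array without pooling, and values are log2 expression per probe set. Scraping takes mucosa with whatever underlying tissue comes off with it, and the hour at which each colon was taken is not given in the sources used here.

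In mammalian cells the clock is a transcriptional loop. ARNTL (also called BMAL1) pairs with CLOCK or with NPAS2 and binds E-boxes in the genes of its own repressors, the PER and CRY proteins, and in Nr1d1, Nr1d2 and Dbp. The REV-ERB receptors encoded by Nr1d1 and Nr1d2 repress Arntl, Npas2 and Cry1 through ROR elements, so Arntl and Npas2 are known to peak when Dbp, Tef, Per3 and the REV-ERB genes are at their trough. DBP and TEF, related PAR-domain bZIP factors, carry the rhythm to other genes through D-boxes. REV-ERB proteins and NPAS2 are known to bind heme, and clocks of the gut and liver are known to follow the time of feeding.

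Promoter sequences were taken from RefSeq on the GRCm38.p6 build, where 9 of the 10 genes matched and gave 12 windows. Each window ran from 250 bases before a gene's start to 50 bases after it. The searched motifs were the E-box CACGTG, the D-box as TTATGTAA or TTACGTAA, and the core of the ROR element as TAGGTCA or TGGGTCA, each on both strands. No motif's letters are part of another's. An E-box stood in windows of Tef, Per1 and Cry1, and 7.15% of all 32851 windows hold one. A D-box stood in the window of Per3 alone among those matched, where it occurred 2 times, and 1.06% of all windows hold one. A ROR element core stood in 1 of the Arntl windows, downstream of the start, and 6.45% of all windows hold one. The upstream bases of Per3, Cry1 and one start of Tef are printed with the site of Arntl, because the results turn on these genes and each shows a motif of one kind. Capitals mark the motif. Per3 lies at chr4:151044666-151044915 on the minus strand, Cry1 at chr10:85185055-85185304 on the minus strand, Tef at chr15:81811164-81811413 on the plus strand, and the Arntl site at chr7:113207530-113207559 on the plus strand.
Per3: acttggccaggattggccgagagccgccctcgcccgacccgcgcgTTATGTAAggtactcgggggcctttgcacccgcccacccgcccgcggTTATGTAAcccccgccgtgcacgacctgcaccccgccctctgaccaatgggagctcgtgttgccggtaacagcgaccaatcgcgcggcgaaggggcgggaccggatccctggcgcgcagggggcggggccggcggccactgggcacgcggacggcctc
Cry1: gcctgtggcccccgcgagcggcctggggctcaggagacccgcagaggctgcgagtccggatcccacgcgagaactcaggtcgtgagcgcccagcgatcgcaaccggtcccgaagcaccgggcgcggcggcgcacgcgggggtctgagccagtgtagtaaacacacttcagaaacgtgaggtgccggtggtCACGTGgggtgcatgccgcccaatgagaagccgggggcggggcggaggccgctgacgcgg
Tef: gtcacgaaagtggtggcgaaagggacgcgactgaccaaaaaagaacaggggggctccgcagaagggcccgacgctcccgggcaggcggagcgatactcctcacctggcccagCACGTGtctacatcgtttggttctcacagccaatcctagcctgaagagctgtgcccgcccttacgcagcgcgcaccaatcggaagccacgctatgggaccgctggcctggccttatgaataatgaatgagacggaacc
Arntl: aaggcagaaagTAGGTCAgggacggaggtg
A match is a description of letters, and binding was not measured in these samples.

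The deposited values had been brought to one distribution, so the close medians of the 15 arrays, between 3.11 and 3.24 on the log2 scale, say little about the arrays themselves. The number of arrays limits the precision. Of the cell-type markers, all 6 epithelial and all 6 colonocyte markers lay over the signal floor of 20 (4.32 on the log2 scale), and none of the markers of neurons and glia on the array did. Of the epithelial markers 2 were higher and 1 was lower in heme mice, and of the colonocyte markers 2 were higher and 2 lower. The colonocyte mean ran from 12.72 to 12.89 in heme mice and from 12.54 to 12.69 in control mice. Among all tested genes 26.4% were lower in heme mice and 27.2% higher. Smooth muscle markers differed between the diets. Of 10 such genes, 5 lay over the floor (Cnn1, Des, Lmod1, Synpo2 and Smtn did not) and all 5 were lower in heme mice, with a mean over the 5 of 5.88 to 7.27 in heme mice and 6.99 to 9.95 in control mice on the log2 scale. Of 6 goblet cell markers 5 were lower in heme mice, where the mean over the 6 ran from 12.8 to 13.1, against 13.1 to 13.3 in control mice. Single mice also stood apart. Control mouse 4 had a mean of 3.19 over the 3 distal-colon Hox genes, against 6.81 to 8.94 in the other control mice and 7.78 to 8.63 in heme mice. Control mouse 2 had the highest fibroblast marker mean, and heme mouse 6 the highest interferon marker mean, 8.94. Of the 4 interferon-response markers 3 were lower in heme mice, and the other 8 heme mice had means of 5.17 to 6.11, against 7.42 to 8.31 in control mice. Without these 3 mice, 8 of the 10 clock genes passed the test, as many as with all mice. How large a share of all tested genes passed without them is not given here.

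Each sample also carries a running number in its code, from 1 to 18, whose meaning the labels do not state. All 9 heme mice have even numbers, 2 to 18, and all 6 control mice odd ones, 1 to 17, so that the diets are interleaved along it, though some heme mice follow each other with no analysed control between them, with means of 10 in heme mice and 9.33 in control mice. It is called the sample code number here, since 8 of the clock genes moved with it.

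Heme mice had less mRNA of the 2 output factors, the 3 Per genes and both REV-ERB genes, and more of Cry1. The probe set with the highest mean stood for each gene, and it was tested with limma over 9257 genes that lay over the floor on at least 6 arrays, with Benjamini-Hochberg adjustment and a threshold of 0.05. All 10 clock genes were among those tested: 7 were lower in heme mice, 1 was higher and 2 did not pass. Among all tested genes 53.6% passed, 26.4% as lower and 27.2% as higher, so that passing the test was common in these data. The median log2 difference, heme minus control, was −0.89 over the 10 clock genes and −0.0062 over all tested genes. At least 2-fold lower were Dbp, Tef, Per2 and Per3, 4 of the 10, where 2.48% of all tested genes passed the test at that size. In none of the 10 did the groups separate fully, whereas in 8.93% of all tested genes every heme mouse lay below every control mouse, and in 11.2% every heme mouse lay above. In scrapings, fewer cells of a type and less RNA per cell cannot be told apart.

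**Figure D1:**
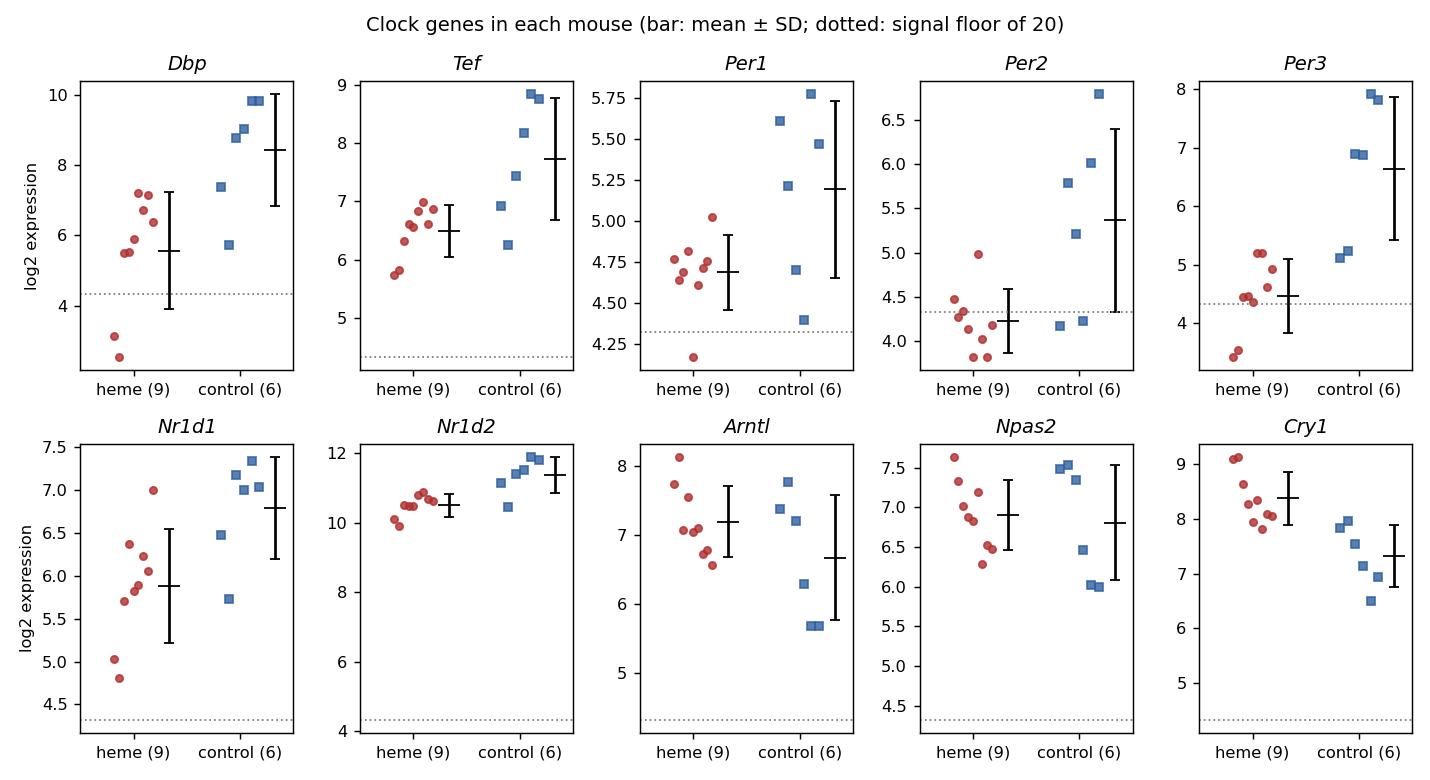
Log2 expression (y axis) of the 10 clock genes in each mouse, with the 9 heme mice left of the 6 control mice in every panel, a point per mouse, bars for mean ± SD and a dotted line at the signal floor of 20. Dbp averaged 5.56 in heme mice and 8.43 in control mice, and Cry1 8.38 in heme mice and 7.32 in control mice, with some overlap in every gene.

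Arntl encodes the partner of CLOCK or NPAS2 in the activating dimers described above. It was measured at 6.57, 7.07 and 8.13 (lowest, median and highest, log2) in heme mice and at 5.68, 6.75 and 7.77 in control mice. The control range holds all heme mice but one, which lay higher. The difference was 0.52 ± 0.33 (SE, 95% interval −0.19 to 1.23) and did not pass the test (limma, adjusted p = 0.199, n = 9 heme and 6 control mice). Npas2, which can replace CLOCK beside ARNTL, ran 6.29, 6.88 and 7.64 in heme mice and 6.00, 6.90 and 7.54 in control mice, with medians that nearly coincide. Its difference of 0.10 ± 0.27 (95% interval −0.48 to 0.68) did not pass either (limma, adjusted p = 0.779), and its sign turned without control mouse 6 or 7 (−0.058 and −0.063). A difference of up to 0.68 in Npas2 and 1.23 in Arntl is within these intervals.

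The Per genes, the negative limb of the loop, were all lower in heme mice, by unequal amounts. Per3 had the clearest difference, with 3.42, 4.46 and 5.19 in heme mice against 5.11, 6.89 and 7.92 in control mice. Of the 9 heme mice 7 lay below the lowest control. Per3 fell by 2.18 ± 0.44 (limma, adjusted p = 6.38e-04), and 2 heme mice were under the floor, so the size is uncertain at the low end. Per2 ran 3.82, 4.18 and 4.98 in heme mice and 4.17, 5.50 and 6.79 in control mice. Most heme mice, 6 of 9, and 2 of the 6 control mice were under the floor, so heme mice gave little signal for Per2 at all. It fell by 1.14 ± 0.34 (limma, adjusted p = 0.00985), and with the smooth muscle marker mean in the model the difference was −0.63 (adjusted p = 0.370). That mean itself differed between the diets with little overlap, so diet and the mean are hard to separate in such a fit. Per1, which many stimuli induce besides the clock, ran 4.17, 4.71 and 5.02 in heme mice and 4.40, 5.34 and 5.77 in control mice, the ranges overlapping in all but 1 heme mouse. It fell by 0.51 ± 0.19 (limma, adjusted p = 0.0300). That call was lost without heme mouse 5 (adjusted p = 0.0525), control mouse 1 (0.0771), control mouse 6 (0.0851) or control mouse 7 (0.0701), and with the smooth muscle mean in the model (difference −0.26, adjusted p = 0.519).

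Cry1, a repressor of ARNTL-containing dimers that is itself under REV-ERB control, was the member that rose. It ran 7.81, 8.28 and 9.14 in heme mice against 6.49, 7.34 and 7.97 in control mice, and 7 of 9 heme mice lay above every control. The rise was 1.06 ± 0.25, or 2.08-fold (limma, adjusted p = 0.00224).

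Both REV-ERB genes were lower in heme mice. Nr1d2, which encodes REV-ERB beta and had the brightest probe set of the 10, ran 9.89, 10.51 and 10.89 in heme mice and 10.45, 11.47 and 11.88 in control mice. The heme median lay near the lowest control. The fall was 0.87 ± 0.20 (limma, adjusted p = 0.00185). Nr1d1, which encodes REV-ERB alpha, ran 4.80, 5.89 and 7.00 in heme mice and 5.72, 7.01 and 7.33 in control mice, and 3 heme mice lay below all controls. It fell by 0.91 ± 0.31 (limma, adjusted p = 0.0211), and without control mouse 6 the difference was −0.80 with an adjusted p of 0.0539.

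Among the output factors Dbp had the widest range of the 10 genes. It ran 2.53, 5.91 and 7.21 in heme mice and 5.72, 8.89 and 9.84 in control mice. Within a diet the highest and lowest mouse differed by more than the diet means did, and 4 heme mice lay below every control, 2 of them under the floor. Dbp fell by 2.86 ± 0.79, or 7.27-fold (limma, adjusted p = 0.00644). Tef ran 5.74, 6.61 and 6.99 in heme mice and 6.24, 7.81 and 8.85 in control mice, so that 4 of the 6 controls lay above all heme mice. Tef fell by 1.25 ± 0.35 (limma, adjusted p = 0.00776).

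The other probe sets of these genes gave the same picture where they could be read. Of the 23 probe sets 15 could be tested in a fit over all 17910 probe sets over the floor: 11 were lower in heme mice, 1 was higher and 3 did not pass, beside 50.9% that passed and 26% that were lower among all tested probe sets. The second Dbp probe set fell by 2.78 and the second Nr1d2 probe set fell by 1.12. Of the further Per3 probe sets one fell by 2.19 and another fell by 1.74. The second Tef probe set differed by −0.89 and did not pass (limma, adjusted p = 0.0645). The 8 others, among them a second one for each of Arntl and Npas2, lay under the floor on too many arrays to be tested.

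**Figure D2:**
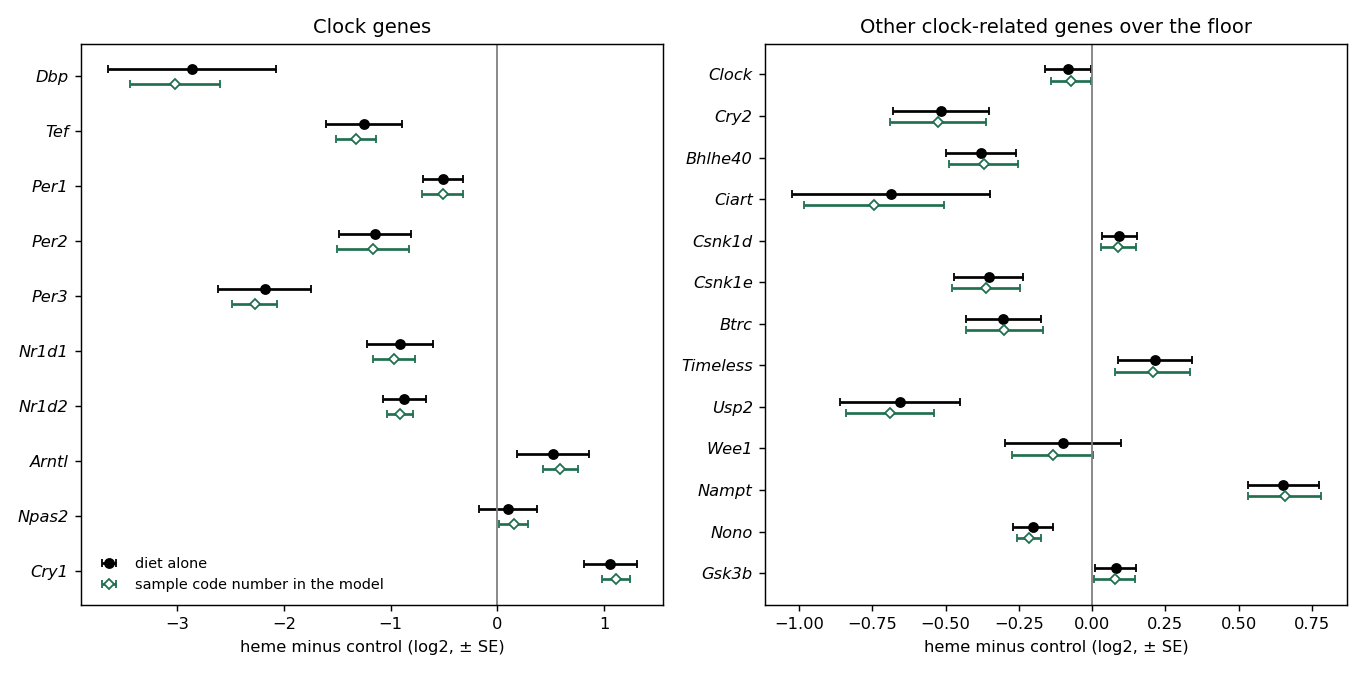
Heme minus control difference on the log2 scale (x axis) with bars of 1 SE, as fitted by limma with diet alone (filled) and with the sample code number in the model (open), for the 10 clock genes on the left and the 13 tested further clock genes on the right. Error bars of Dbp, Per3, Cry1 and Arntl are shorter with the number in the model, and Dbp lies farthest below 0, at −2.86 with diet alone and −3.02 with the number.

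Clock genes varied more between mice on the same diet than most genes did. The median within-group SD on the log2 scale was 0.465 over the 10 clock genes in heme mice, where that of all tested genes was 0.161. In control mice it was 0.817 over the clock genes, where that of all tested genes was 0.182. Within the top 10% of all tested genes by this SD lay 8 of the 10 in heme mice, where Per1 and Nr1d2 were the exceptions, and all 10 in control mice. Dbp had the largest SD of the 10 in both diets, 1.67 in heme mice and 1.60 in control mice.

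In 8 of the 10 genes, Per1 and Per2 being the exceptions, expression followed the sample code number. In the Dbp probe set, heme mice with the numbers 2 and 4 had 3.15 and 2.53, the heme mice numbered 12, 14, 16 and 18 had 7.21, 6.73, 7.15 and 6.37, and those numbered 6, 8 and 10 lay between at 5.49, 5.53 and 5.91. Control mice numbered 1 and 3 had 7.39 and 5.72, those numbered 9 and 11 had 8.77 and 9.02, and those numbered 15 and 17 had 9.82 and 9.84. Dbp was thus low at low numbers on both diets, and lower in heme mice than in the control mice with neighbouring numbers. Arntl ran the other way. Its heme mice numbered 2 and 4 had 7.74 and 8.13 and the one numbered 18 had 6.57, while control mice numbered 1 and 3 had 7.38 and 7.77 and those numbered 15 and 17 had 5.69 and 5.68.

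**Figure D3:**
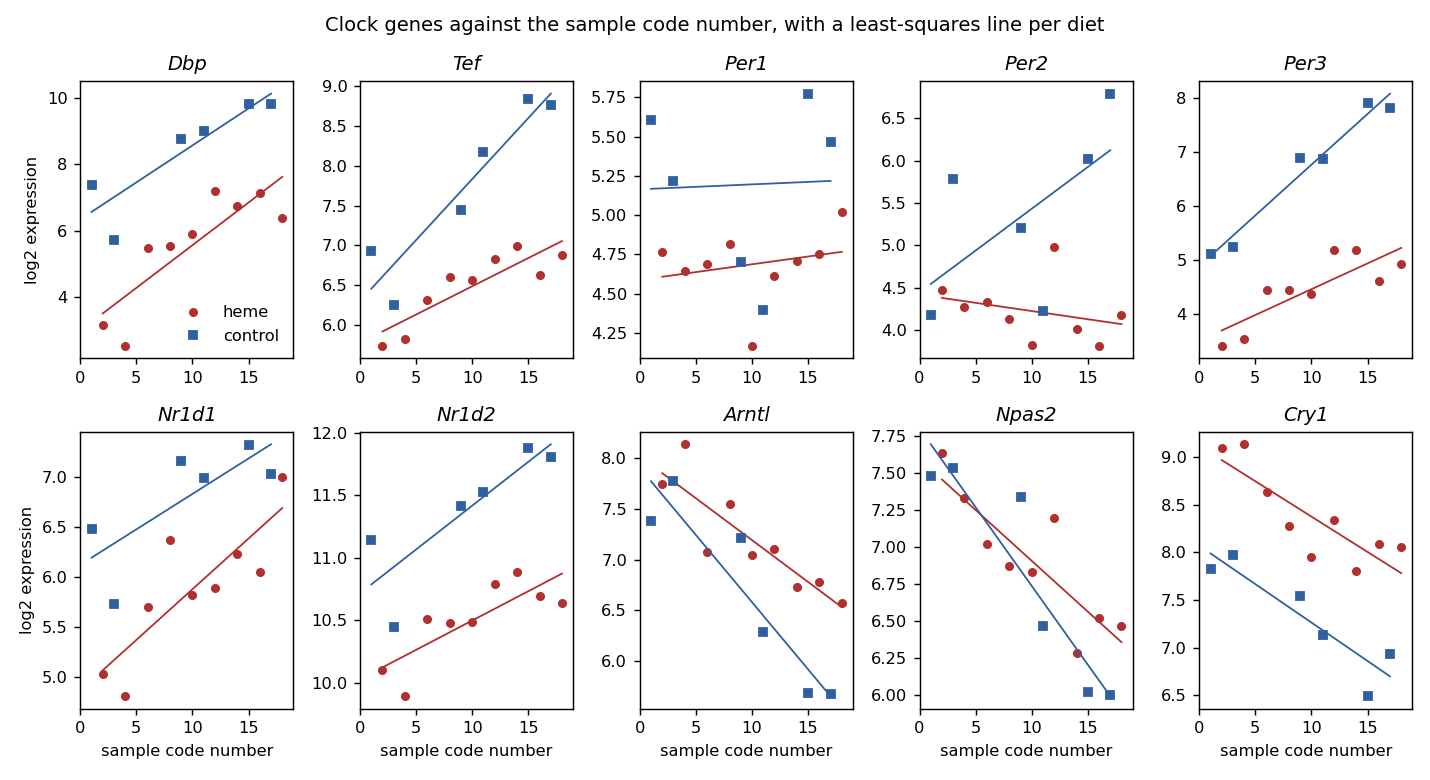
Log2 expression of the 10 clock genes against the sample code number, which has no unit, for heme mice (9) and control mice (6), a point per mouse and a least-squares line per diet. Dbp, Tef, Per3, Nr1d1 (not called in control mice) and Nr1d2 climb and Arntl, Npas2 and Cry1 decline along the number in both diets, while Per1 and Per2 show no called relation.

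With diet in the model, limma gave a slope on the number past the threshold for 8 of the 10 clock genes and for 39 of the 9257 tested genes, 0.421%. Positive slopes were called for Dbp, Tef, Per3, Nr1d1 and Nr1d2, where 0.14% of all genes had one, and negative slopes for Arntl, Npas2 and Cry1, where 0.281% had one. By size of the limma statistic the first 6 of all 9257 genes were Per3, Arntl, Npas2, Cry1, Tef and Dbp, in that order, while Nr1d2 ranked 30 and Nr1d1 34. Per2 and Per1 ranked 3528 and 7027. The Dbp slope was 0.24 ± 0.038 on the log2 scale per unit of the number (limma, adjusted p = 0.0195), that of Per3 0.14 ± 0.019 (limma, adjusted p = 0.0147) and that of Arntl −0.11 ± 0.015 (limma, adjusted p = 0.0147). What the number records, whether an order of dissection, of RNA work or of hybridisation, was not tested, and neither was its part in the diet comparison beyond the fits given here.

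**Figure D4:**
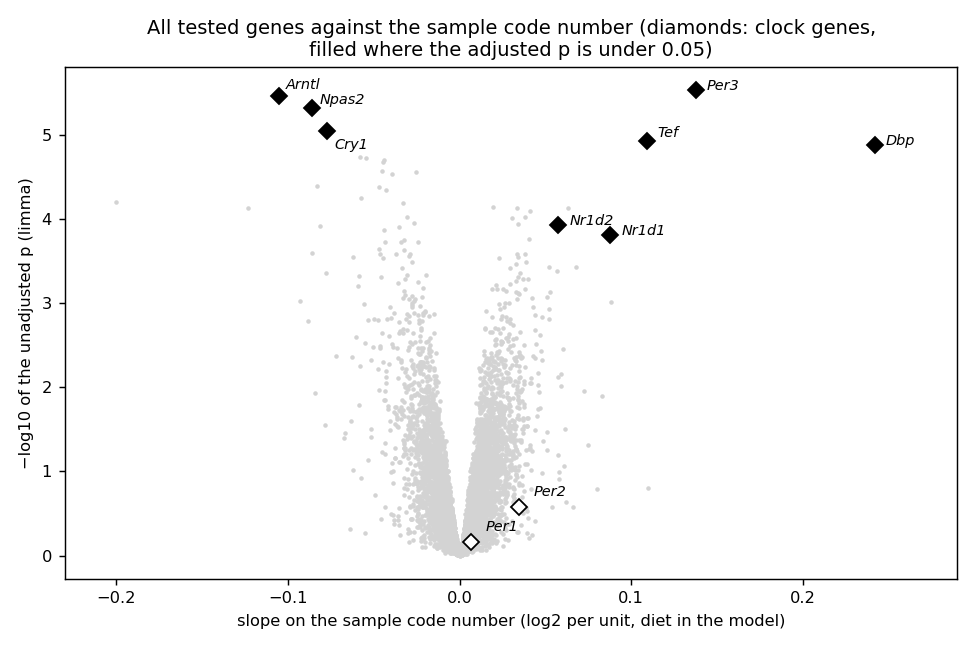
Slope on the sample code number (log2 per unit) against −log10 of its p-value from limma, for all 9257 tested genes, with the clock genes named. Per3, Arntl, Npas2, Cry1, Tef and Dbp sit above the other genes, positive and negative slopes both among them, and Per1 and Per2 lie in the bulk.

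Within each diet on its own the same members tracked the number. Exact two-sided permutation tests of Pearson's r, adjusted over 20 relations, called 15, 8 in heme mice and 7 in control mice, and Spearman's rho also called 15. For Dbp, r was 0.84 in heme mice (exact permutation p = 0.00297, adjusted 0.0155; rho 0.83, p = 0.00827, adjusted 0.0344) and 0.89 in control mice (exact permutation p = 0.0153, adjusted 0.0235; rho 0.94, p = 0.0167, adjusted 0.0344). For Arntl, r was −0.87 in heme mice (exact permutation p = 0.00195, adjusted 0.0155; rho −0.88, p = 0.00308, adjusted 0.0308) and −0.93 in control mice (exact permutation p = 0.0125, adjusted 0.0208; rho −0.94, p = 0.0167, adjusted 0.0344). Both genes therefore tracked the number in each diet. The relations not called were those of Per1 and Per2 in both diets and that of Nr1d1 in control mice (r = 0.76, exact permutation p = 0.0681, adjusted 0.0851). Without the 2 mice of each diet farthest from the median number, r for Dbp was 0.86 over 7 heme mice and 0.98 over 4 control mice, and for Arntl −0.82 and −0.93. The control relation of Nr1d1 was 0.079 over 4 mice. The count of calls was 8 without control mouse 4, 9 without control mouse 7 and 8 without control mice 2 and 4 and heme mouse 6. The relations lost were all in control mice, where the exact test then had few pairings. Without control mouse 4, r there was 0.85 for Nr1d2, 0.89 for Dbp, 0.98 for Per3 and −0.93 for Arntl. Without the 3 mice it was 0.99 for Dbp and −0.88 for Cry1 over 4 control mice, too few for the adjusted test. Slopes were not shown to differ between diets: the interaction in limma called 0 of 9257 genes, 0%, with 569 at an unadjusted p under 0.05, among them Per3 (unadjusted p = 0.00896), Tef (unadjusted p = 0.00901) and Per2 (unadjusted p = 0.0465).

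At equal sample code number the errors were smaller for the 8 genes with a called slope and about the same for Per1 and Per2. The smaller errors follow from the called slopes and are no separate result. Dbp differed by −3.02 ± 0.42 (limma, adjusted p = 4.06e-05), Per3 by −2.27 ± 0.21 (limma, adjusted p = 1.12e-06) and Cry1 by 1.11 ± 0.13 (limma, adjusted p = 9.05e-06). Arntl, which did not pass with diet alone, was higher in heme mice by 0.59 ± 0.16 (limma, adjusted p = 0.00664). Npas2 did not pass, at 0.16 ± 0.14 (limma, adjusted p = 0.349). With the number in the model 9 of the 10 clock genes passed, beside 54.9% of all tested genes. The residual SD of Dbp was 0.88 with the number in the model and 1.65 without it.

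Set against its own slope, the diet difference of Dbp equalled −12.5 ± 2.54 units of the number (SE by the delta method), and that of Tef −12.1 ± 2.47. The same ratio was −16.5 ± 2.65 for Per3, −15.8 ± 3.62 for Nr1d2, −11.0 ± 3.01 for Nr1d1 and −14.4 ± 2.67 for Cry1. The ratios of these 6 genes thus shared a sign, although Cry1 differed between the diets in the opposite direction to the others. Arntl and Npas2 had smaller ones, −5.63 ± 1.69 and −1.82 ± 1.59. No test between genes was made, since they were measured in the same mice. Each ratio uses a single slope for both diets, and its SE does not cover a difference in slope between them. Fitted by diet, the slope was 0.071 in heme mice and 0.15 in control mice for Tef. It was 0.096 and 0.19 for Per3, and 0.26 and 0.22 for Dbp, in the same order.

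Genes of opposite phase moved in opposition within each diet. Of 18 relations of Arntl with the other 9 genes, exact two-sided permutation tests of Pearson's r called 13, 9 of them negative and 4 positive, 7 in heme mice and 6 in control mice, after adjustment over the 18. With Dbp, r was −0.88 in heme mice (exact permutation p = 0.00216, adjusted 0.00833; rho −0.65, p = 0.0666, adjusted 0.0922) and −0.90 in control mice (exact permutation p = 0.00139, adjusted 0.00833; rho −1, p = 0.00278, adjusted 0.0167). With Npas2, its fellow activator, r was 0.81 in heme mice (exact permutation p = 0.00747, adjusted 0.0134; rho 0.92, p = 0.00131, adjusted 0.0167) and 0.99 in control mice (exact permutation p = 0.00139, adjusted 0.00833; rho 1, p = 0.00278, adjusted 0.0167). Arntl thus ran against the output factor and with Npas2 in both diets. Tef, Per3, Nr1d1 and Nr1d2 had r with Arntl between −0.80 and −0.88 in heme mice and between −0.76 and −0.98 in control mice, where Nr1d1 was the one not called (exact permutation p = 0.0694, adjusted 0.0893). Cry1, a late gene of the cycle, ran with Arntl at 0.85 in heme mice and 0.96 in control mice. By Spearman's rho 8 of the 18 were called.

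Without heme mice 1 and 2, the mice farthest from the median of Arntl, r over 7 heme mice was −0.53 with Dbp, −0.54 with Nr1d2, −0.37 with Nr1d1 and 0.68 with Npas2, and no heme relation was called, so the calls in heme mice rested on these 2 together. Leaving out both mice also narrows the range of Arntl, and with either left out alone Nr1d1 was the one relation lost in heme mice. Without control mice 6 and 7, r over 4 control mice was −0.83 with Dbp, −0.96 with Tef and 0.97 with Npas2, which are too few mice for the adjusted test to say anything. Leaving out control mice 2 and 4 and heme mouse 6 gave 7 calls. The relations lost were all in control mice, where the 4 left were again too few for the adjusted test. There r with Arntl was −0.91 for Dbp, −0.99 for Tef, −0.87 for Per3 and 0.94 for Cry1. Over all 15 mice with each group mean removed, 7 of 9 relations passed a permutation test within groups: r was −0.85 for Dbp (permutation p = 3e-05, adjusted 9e-05) and −0.94 for Tef (permutation p = 1e-05, the smallest that the resamples can give, adjusted 9e-05). With the sample code number removed within each diet, 1 of the 18 relations was called, that of Arntl with Npas2 in control mice (r = 0.93, exact permutation p = 0.00139, adjusted 0.0250), and for Dbp r was −0.55 in heme mice and −0.44 in control mice. Some values stayed large without passing: r was −0.63 in heme mice and −0.58 in control mice for Nr1d2, and in control mice −0.88 for Tef and 0.76 for Cry1.

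**Figure D5:**
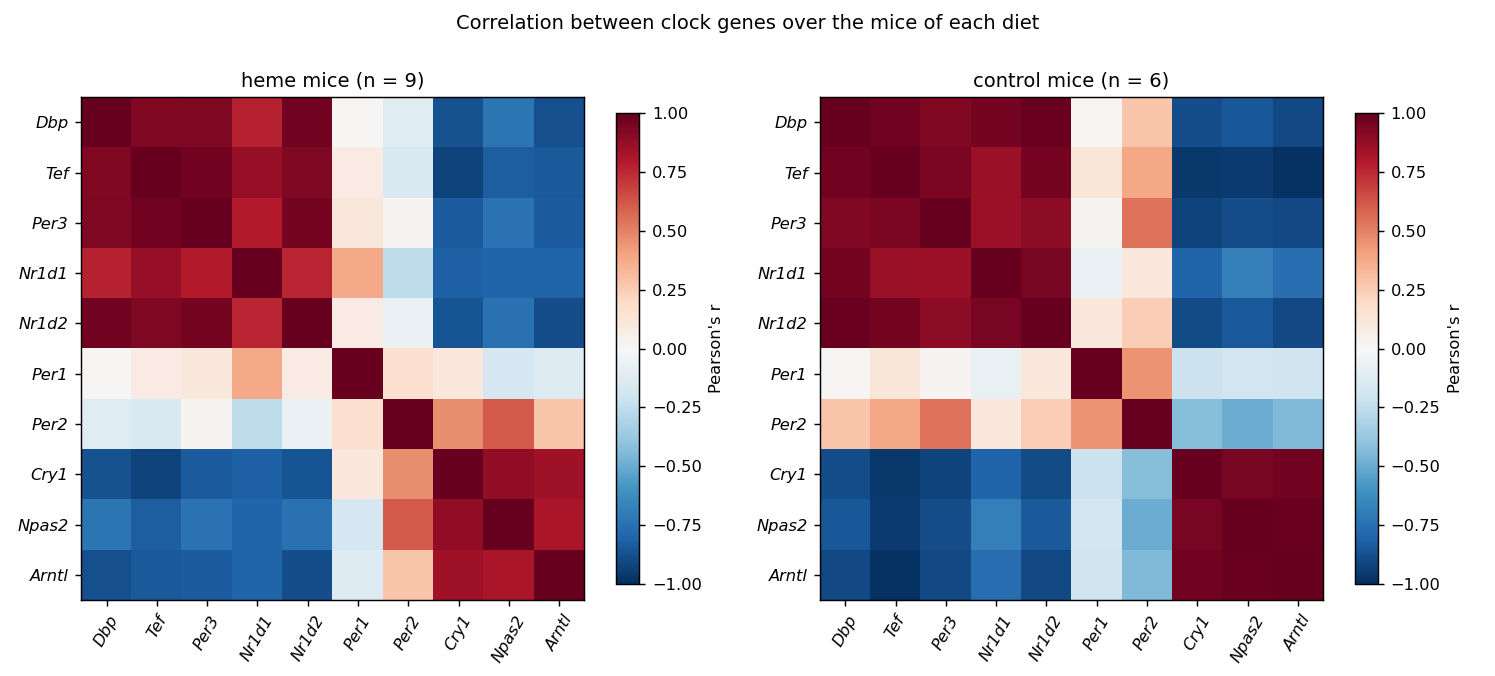
Pearson's r (colour, −1 to 1) between each pair of the 10 clock genes over the 9 heme mice (left) and the 6 control mice (right). Dbp, Tef, Per3, Nr1d1 and Nr1d2 form a block of positive r and run against Cry1, Npas2 and Arntl in both diets, as in r of −0.88 in heme mice and −0.90 in control mice for Dbp with Arntl, while Per1 and Per2 stand outside both blocks.

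Among the genes that share a phase the relations were tight. Dbp and Nr1d2 had r of 0.97 in heme mice and 0.99 in control mice, Dbp and Tef 0.93 and 0.96, and Tef and Per3 0.97 and 0.94, in the same order of diets. Per1 stood apart from the rest: with the other 9 genes its r ran from −0.17 to 0.38 in heme mice and from −0.21 to 0.45 in control mice. Per2 likewise followed none of them closely, with r of 0.61 with Npas2 in heme mice and 0.54 with Per3 in control mice as its highest values, and in heme mice both Per1 and Per2 lay near the floor. These pairs are given as descriptions over 9 heme mice and 6 control mice that share the same arrays.

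The smooth muscle markers, which differed between the diets, were also set against the clock genes within diets. With group means removed, r between each clock gene and the smooth muscle mean over 15 mice lay between −0.44 for Tef and 0.31 for Per2, and that between the number and the smooth muscle mean was −0.14. With the smooth muscle mean in the model 6 of the 10 clock genes passed, Per1 and Per2 being lost. The share of all tested genes that passed in that fit is not given here. Whether the loss is particular to Per1 and Per2 was therefore not tested. With the distal-colon Hox mean, which was low in control mouse 4, r was 0.66 for Per2 and 0.48 for Per1 and between −0.071 and 0.10 for the 8 others.

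Further clock genes, which act beside the 10, were counted in the same fit. Of 20 further clock genes on the array, 13 could be tested: 5 were lower in heme mice, 1 was higher and 7 did not pass, with a median difference of −0.20. These 6 of 13 lie near the share of all tested genes, 53.6%, of which 26.4% were lower and 27.2% higher. Cry2, the second cryptochrome, fell by 0.52 ± 0.16 (limma, adjusted p = 0.0144), and Usp2, a deubiquitinase gene of the clock's output, by 0.66 ± 0.21 (limma, adjusted p = 0.0137). Bhlhe40, a repressor acting at E-boxes, fell by 0.38, Csnk1e, a kinase of PER proteins, by 0.35, and Nono, a partner of PER complexes, by 0.20. Nampt, the enzyme of NAD salvage, rose by 0.65 ± 0.12 (limma, adjusted p = 3.69e-04), and all 9 heme mice lay above all controls. Clock itself differed by −0.083 ± 0.079 and did not pass (limma, adjusted p = 0.394), nor did Ciart, another repressor of ARNTL dimers, at −0.69 ± 0.34 (limma, adjusted p = 0.0974), or Csnk1d, Btrc, Timeless, Wee1 and Gsk3b. With the smooth muscle mean in the model 2 of the 13 passed, and Nampt, at 0.30, did not (adjusted p = 0.155). How many of all tested genes passed in that fit is not given here, so whether the drop is particular to these genes was not tested. Rora, Rorb, Hlf, Bhlhe41, Arntl2 and Fbxl21 lay under the floor on all arrays, and Nfil3 lay over it on 2, too few to be tested.

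Of the other clock genes Nono alone had a called slope on the sample code number, 0.020 ± 0.0036 on the log2 scale per unit (limma, adjusted p = 0.0303). Ciart had slopes of 0.021 in heme mice and 0.17 in control mice, a difference with an unadjusted p of 5.98e-06 that did not pass over all genes (limma, adjusted p = 0.0553).

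Glucocorticoids also act on Per1, so 9 genes known to respond to them were counted. Of 7 tested, 1 was higher in heme mice and 2 were lower, with a median difference of 0.18, which is no more than the 53.6% of all tested genes that passed. Fkbp5, which encodes a chaperone partner of the glucocorticoid receptor, rose by 0.31 ± 0.11 (limma, adjusted p = 0.0226). Klf9, a Krüppel-like factor gene, fell by 0.64 ± 0.07 (limma, adjusted p = 4.88e-06), with all heme mice below all controls, and Per1 was the other that fell. Sgk1 differed by 0.49 (limma, adjusted p = 0.152) and Dusp1 by 0.37 (limma, adjusted p = 0.0741), neither past the threshold.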

How the data were processed

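Colon scrapings of 9 heme and 6 control mice were measured on 1 Affymetrix array each; control replicate 5 was not analysed here. Per the submitters' processing notes, the authors used GCRMA 2.22.0, a method that subtracts background predicted from each probe's sequence, brings arrays to one distribution and combines the probes of a set. What they deposited is 1 log2 value per probe set and array. With no detection calls in the sources used here, a floor was set at a signal of 20 (log2 of 4.32). GCRMA pulls dim probe sets together, so differences near the floor are uncertain in size.

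Of the probe sets 34958 had 1 symbol, 932 several and 9211 were not listed, and only the first stood for genes. A gene was its probe set with the highest mean, tested if its signal was over 20 on at least 6 arrays. Heme was compared with control in limma 3.58.1 (R 4.3.3; lmFit, eBayes) over all 9257 such genes, with Benjamini-Hochberg adjustment and a threshold of 0.05, and differences are heme minus control. Correlations used exact two-sided permutation of all pairings in each diet (scipy 1.17.1), or 100000 resamples within diets over all 15 mice. Adding the number coefficient, its interaction with diet and the fits without control mice 2 and 4 and heme mouse 6 to the correlations was chosen after seeing the data. The other alternatives were other signal floors, averaging the probe sets of a gene, quantile normalization or centring of arrays, a robust variance with trend, weights per array, a replicate block, and the sample code number, smooth muscle or distal Hox marker means as covariates, an exact permutation test over 5005 splits, and leaving out mice. The code was tested on simulated data.

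The clock genes, the further clock genes, the glucocorticoid list and the marker lists were chosen with earlier results of these data known. All 10 clock genes are named, every tested further clock gene, and the 8 genes most like and most unlike Dbp and Arntl. Of the tested glucocorticoid-responsive genes the 4 with the largest change are named (Klf9, Per1, Sgk1 and Dusp1), and Fkbp5 outside that rule. Other genes were named after their values were seen. Same-numbered heme and control replicates did not deviate together, so the numbers were not taken to pair mice.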

Additional observations from a re-analysis of the deposited data

Results flagged for a closer look

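In heme mice Per1 was 4.17 on the log2 scale in mouse 5, under the signal floor, while the other 8 heme mice lay between 4.61 and 5.02. Of 20 sets of one clock gene in one diet this was the 1 in which a single mouse lay far from its group, a gap that chance gives in about 1 of 20 groups. Without this mouse the Per1 difference was −0.44 (limma, adjusted p = 0.0525).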

How the results depend on the processing

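Dbp, Tef, Per3, Nr1d2 and Cry1 kept their direction and their call under every alternative in which they could be tested, with differences of −4.10 to −2.48 for Dbp, −2.01 to −0.73 for Tef, −2.84 to −1.93 for Per3, −1.29 to −0.77 for Nr1d2 and 0.89 to 1.31 for Cry1. The count of clock genes called was 8 of 10, 6 to 8 with single mice left out, and 4 of 6 tested at a signal over 100, where fewer genes and probe sets could be tested. There 4 member probe sets were called instead of 12. In the main fit 53.6% of all tested genes passed. The shares under the alternatives are not given here, so neither these counts nor those below can be set beside them. Per1 was also lost with quantile normalization (adjusted p = 0.0712). Same-numbered mice had correlations of deviations from −0.19 to 0.20, and 2 of 6 were closest to their own number; with the replicate block 7 clock genes were called, Per1 (−0.49, adjusted p = 0.0854) and Per2 (adjusted p = 0.0604) no longer and Arntl newly (0.72, adjusted p = 0.0281). Array weights also called Arntl (0.86, adjusted p = 0.0348). Further clock genes called were 6 of 13, 4 to 8 with single mice left out (8 without control mouse 2, 4 without control mouse 6), and 2 with the smooth muscle covariate, whose cause was not tested. Relations with Arntl called were 13 of 18, 10 to 14 with single mice left out, 8 by Spearman's rho, 0 without the 2 farthest mice (4 control mice being too few to test) and 1 with the number removed. Without control mice 2 and 4 and heme mouse 6 the count was 7, all in heme mice, the 4 control mice left again being too few. Relations with the number were 15 of 20, 8 to 15 with single mice left out and 8 without those 3 mice. All relations lost in these fits were in control mice, the smaller group. Fewer mice were tested there, and the 4 control mice left without those 3 were too few for the adjusted test.

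Signs turned only for values that were not called, and for Per3 with Arntl. When all its probe sets were averaged, Wee1 was 0.0077, Gsk3b −0.17 and the r of Per2 with Arntl in heme mice −0.029. With the smooth muscle covariate Clock was 0.13. Npas2 was −0.058 without control mouse 6 and −0.063 without control mouse 7, and up to 0.24 with other single mice left out. Without the 2 farthest control mice, r with Arntl was 0.77 for Per1 and 0.66 for Per2. With the number removed it was 0.17 for Per1 in heme mice, 0.42 for Per2 and 0.12 for Per3 in control mice. Without heme mouse 9 Per1 had r of 0.16 with Arntl and −0.091 with the number. Without control mouse 6 these were 0.11 and −0.25, and without control mouse 7 its r with the number was −0.14. With single mice left out, the other ends of these ranges for Per1 were r of −0.41 with Arntl and 0.45 with the number in heme mice and −0.51 and 0.39 in control mice. The cause was not tested. Signal near the floor limits Per1, Per2 and the low Dbp and Per3 values.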

Other observations

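With the 10 clock genes left out of the ranking, the genes whose expression most resembled that of Dbp, by Pearson's r over 15 mice with group means removed and among 9014 genes ranked, were Nono (0.90), Zbtb22, Pspc1, Ktn1, Kat5, Dnaaf5, Wtap and Fzd6 (0.84). Nono and Pspc1 encode related paraspeckle proteins. Most opposed to Dbp were Zdhhc18 (−0.92), Hspa1b (−0.92), Brwd1, Ubp1, Trp53inp1, Dnaja1, Chordc1 and Banp (−0.83). Hspa1b encodes an inducible heat shock protein, Dnaja1 a co-chaperone and Chordc1 a chaperone partner of HSP90. Most like Arntl were Tprn (0.96), Sfn, Mapk8ip3, Hsph1, Mtmr4, Ppp2r1b, Elf3 and Ldha (0.86), and most opposed to it Cipc (−0.91), Ddx52, Ebag9, Nono, Snapin, Zfp362, Snhg6 and Zkscan17 (−0.83). Among the clock genes themselves, r with Dbp was 0.95 for Nr1d2 and −0.87 for Cry1, and r with Arntl was −0.94 for Tef and 0.93 for Npas2. Cipc encodes an inhibitor of the CLOCK and ARNTL dimer. These values are descriptions over mice that share the same arrays.

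Resemblance to the clock genes and the diet difference did not go together in all of these genes. Hspa1b differed by 0.031 ± 0.68 (limma, adjusted p = 0.974) and did not pass the diet comparison, while Zdhhc18 rose by 1.14 ± 0.15 (limma, adjusted p = 1.78e-05), Sfn rose by 1.96 ± 0.19 (limma, adjusted p = 8.42e-07) and Cipc fell by 0.70 ± 0.14 (limma, adjusted p = 5.75e-04).

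Heat shock genes also stood among those with a called slope on the sample code number, where they were chosen after their values were seen. The slope per unit, on the log2 scale, was −0.058 ± 0.0093 for Dnaja1 (limma, adjusted p = 0.0195), −0.055 ± 0.0088 for Dnajb1 (limma, adjusted p = 0.0195) and −0.20 ± 0.036 for Hspa1b (limma, adjusted p = 0.0303). Sgk1, a glucocorticoid-responsive kinase gene, had a slope of −0.083 ± 0.014 (limma, adjusted p = 0.0258). These ran in the direction of Arntl, Npas2 and Cry1. What the number records was not tested.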
